A study of Schizosaccharomyces pombe with 6 samples.

Results

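Hsp90 and its co-chaperones are represented here by 4 genes, hsp90 (SPAC926.04c), wos2 (SPAC9E9.13), sti1 (SPCC645.14c) and cdc37 (SPBC9B6.10), chosen by their identifiers from the 7268 features of the count table. In cpn1∆ cells, hsp90, wos2 and sti1 rose together, by 1.46-, 1.55- and 1.51-fold over wild-type. cdc37 did not pass the test, at 0.949-fold. The libraries came from polyadenylated RNA of Schizosaccharomyces pombe, with 3 biological replicates per strain grown to log phase in rich medium at 32 °C. The cpn1∆ strain EHB7577 was h+ and carried cpn1::HygMX6, a deletion of cpn1 marked with a hygromycin-resistance cassette, and the wild-type strain EHB7 was h+ with an intact cpn1. Both strains also carried the alleles ade6-210, leu1-32 and ura4-D18 and the centromeric reporter otr1R:ade6+. By the labels each genotype is 1 strain, so any other difference between the strains cannot be told apart from the deletion. Cpn1 is the fission yeast Caprin, related to a human RNA-binding protein of stress granules. RNA-seq was used to ask which other genes differ in RNA level when it is missing.

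Hsp90 is an abundant, ATP-driven chaperone that holds late folding intermediates of kinases, receptors and other regulatory proteins until they become active. It works in a cycle with co-chaperones. Sti1, the counterpart of human Hop, bridges Hsp70 and Hsp90 so that a protein can pass from one to the other. Cdc37 brings protein kinases to Hsp90, and Wos2, the fission yeast p23, binds Hsp90 in its closed, ATP-bound form. In fission yeast, Hsp90 is also known as Swo1 and Git10, after screens for regulators of the Wee1 kinase and of glucose signalling. Genes of this system are known targets of the heat shock factor Hsf1 in many eukaryotes.

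In the ASM294v3 annotation, hsp90 is a gene of 1 exon and 2582 bp of exonic length on chromosome I, wos2 has 2 exons and 1004 bp on chromosome I, sti1 has 1 exon and 2238 bp on chromosome III, and cdc37 has 4 exons and 1613 bp on chromosome II. Counts assigned to features came to 28581993, 30768334 and 32575215 in the cpn1∆ libraries and to 26461216, 31213267 and 32916622 in the wild-type libraries. The deleted gene cpn1 had 169, 182 and 194 counts in cpn1∆ cells, against 7543, 8990 and 9034 in wild-type cells. All 4 genes passed the filter on low counts, which left 5812 features to be tested. Levels are given as CPM, the counts of a gene relative to the size of its library, with library sizes adjusted by TMM, the trimmed mean of M-values. Changes are given as log2 fold changes (log2FC, cpn1∆ over wild-type) with their standard error, and genes were called at a false discovery rate (FDR) under 0.05 in edgeR (quasi-likelihood test, p-values adjusted by Benjamini-Hochberg over all features tested). In bulk RNA, more cells with a transcript and more of it per cell cannot be told apart.

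The chaperone gene itself, hsp90, gave 2508, 2391 and 2501 CPM in the cpn1∆ libraries, against 1714, 1620 and 1725 CPM in the wild-type libraries. The lowest cpn1∆ library thus lay well above the highest wild-type library. Its mean was 2467 ± 65.3 CPM in cpn1∆ and 1686 ± 57.6 CPM in wild-type cells (SD, n = 3 each), a log2FC of 0.55 ± 0.04 (standard error; edgeR adjusted p = 3.43e-07). The raw counts behind these values were 72099, 74920 and 81641 in cpn1∆ cells, against 45426, 50797 and 55002 in wild-type cells, so that counting error is small beside the spread between replicates.

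The p23 gene wos2 had the largest log2FC of the 4. It gave 725, 679 and 717 CPM in cpn1∆ libraries, against 471, 446 and 456 CPM in wild-type libraries, with no overlap. The log2FC was 0.63 ± 0.03 (standard error; edgeR adjusted p = 2.1e-08). For sti1, whose product links Hsp70 to Hsp90, the levels were 396, 378 and 422 CPM in cpn1∆ cells, against 263, 256 and 270 CPM in wild-type cells. These groups did not overlap either, and the log2FC was 0.60 ± 0.04 (standard error; edgeR adjusted p = 1.44e-07). The 95% intervals of the log2FC overlap, at 0.56 to 0.70 for wos2, 0.52 to 0.68 for sti1 and 0.47 to 0.63 for hsp90. This overlap does not settle the order of the changes, since it ignores that the genes share libraries. Ratios within each library are given below.

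**Figure D1:**
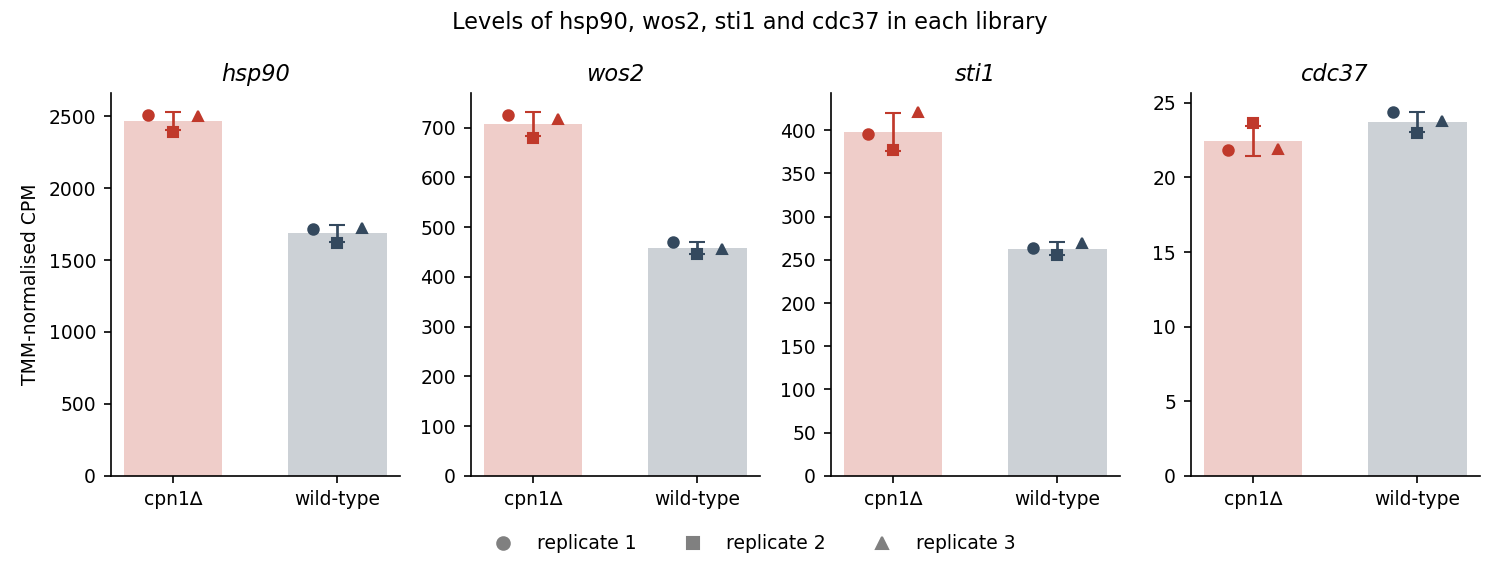
TMM-normalised CPM of hsp90, wos2, sti1 and cdc37 in each of the 3 cpn1∆ and 3 wild-type libraries (points, shaped by replicate), with the mean (bar, from 0) and SD (error bar). The 3 cpn1∆ libraries lie above the 3 wild-type libraries for hsp90, wos2 and sti1, while for cdc37 the groups overlap.

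The kinase co-chaperone gene cdc37 was not called. It gave 21.8, 23.6 and 21.9 CPM in cpn1∆ cells, against 24.4, 23.0 and 23.8 CPM in wild-type cells, and the groups overlapped. The log2FC was -0.08 ± 0.06 (standard error; edgeR adjusted p = 0.431), with a 95% interval from -0.21 to 0.06 that leaves out the changes of hsp90, wos2 and sti1. This value is uncertain, because 92.9% of the exonic length of cdc37 is overlapped by other counted features in the ASM294v3 annotation. Nearly all of this overlap is with SPBC9B6.11c, a gene on the opposite strand that encodes a protein of the CCR4/nocturin family and had 166 ± 2.67 CPM in cpn1∆ and 175 ± 4.02 CPM in wild-type cells (SD, n = 3 each). Whether the counting used strand, and how it treated overlaps, is not given in the sources used here. For comparison, 0% of the exonic length of hsp90, wos2 or sti1 is overlapped by a counted feature, and 0 of the 4 genes carry fractional counts.

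Of the 4 genes, 3 were thus called higher and 0 lower, where 8.36% of all features tested were called higher and 10.2% lower, 18.6% in all. The balance of all features turned with the scaling, at 486 higher and 595 lower with TMM, 551 and 524 with upper quartile scaling, and 636 and 399 with total counts only, while hsp90, wos2 and sti1 were called higher and cdc37 was not called under each. The median log2FC was 0.57 over the 4 genes and 0.01 over all features tested. At the thresholds of the study, which also ask for a log2FC above 1 or below -1, 0 of the 4 genes were called, against 0.31% of all features called higher and 0.31% called lower. Library groups without overlap in the higher direction, found for hsp90, wos2 and sti1, occurred in 17.3% of all features, against 18.1% in the lower direction and 35.5% in either. At a fold threshold of 1.5, chosen after the data were seen, 0.843% of all features were called higher, with wos2 and sti1 among them and hsp90 just below. Among the 1925 features with a mean of at least 100 CPM over both genotypes, a limit also chosen afterwards, 4 rose by over 1.5-fold (0.208%). These were wos2, sti1, the Hsp40 gene psi1, and mrpl6, a mitochondrial ribosomal protein gene next to the deleted cpn1 locus. By log2FC, wos2 stood at rank 87, sti1 at 92 and hsp90 at 112 of the 5812 features.

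**Figure D2:**
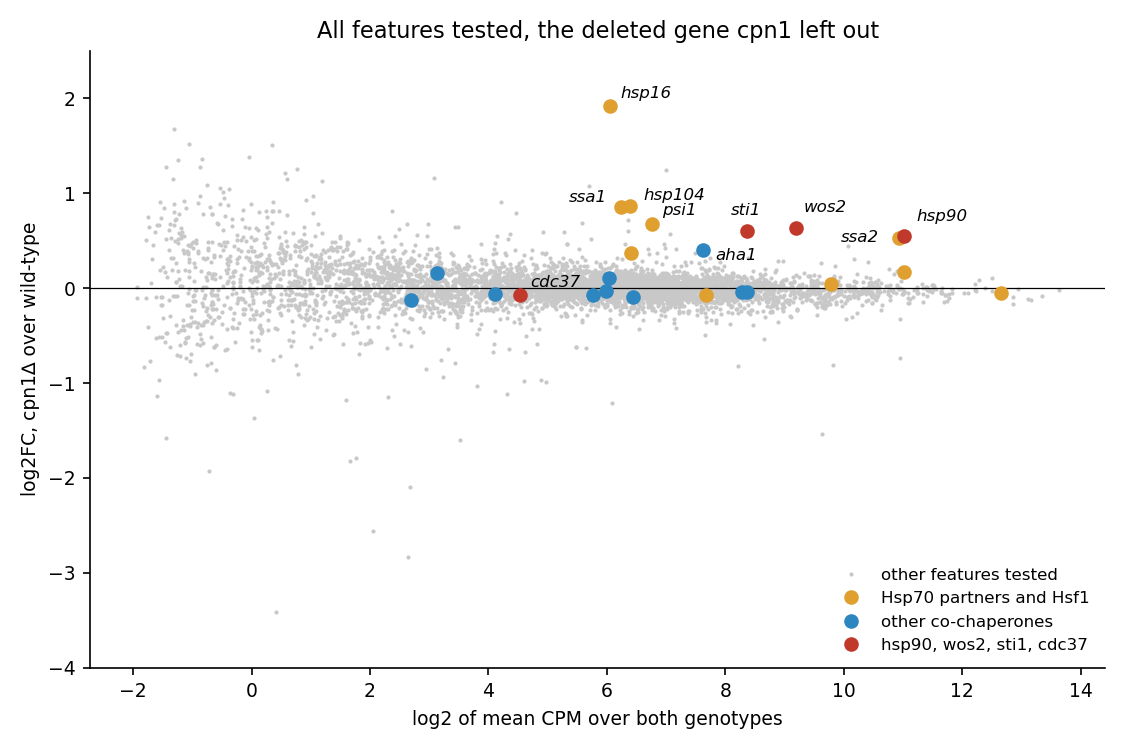
log2FC (cpn1∆ over wild-type, y) against the log2 of the mean CPM over both genotypes (x) for all features tested, with cpn1 left out. hsp90, wos2 and sti1 (red) stand above most features of like mean CPM at log2FC 0.55 to 0.63, with ssa2 beside hsp90, while cdc37 lies near 0.

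Levels can be set side by side between genes only per length of transcript. Per kilobase of exon in the ASM294v3 annotation, hsp90 ranked 220 of 5755 features in wild-type cells and had 955 ± 25.3 CPM in cpn1∆ and 653 ± 22.3 CPM in wild-type cells (SD, n = 3 each). wos2 followed with 704 ± 24.8 CPM per kilobase in cpn1∆ and 456 ± 12.4 in wild-type cells, and sti1 with 178 ± 9.87 in cpn1∆ and 117 ± 3.21 in wild-type cells. Within each genotype, the libraries of neighbours in this order did not overlap, so that Hsp90 transcripts were more abundant per length than those of either co-chaperone in both genotypes. The same measure for cdc37 was 13.9 ± 0.621 CPM per kilobase in cpn1∆ and 14.7 ± 0.429 in wild-type cells. If its counts came only from the 114 bp of exon that no other counted feature overlaps, the level would be 197 ± 8.78 CPM per kilobase in cpn1∆ and 208 ± 6.07 in wild-type cells, above that of sti1 in both genotypes. The place of cdc37 in the order was therefore not settled by these counts. Together, hsp90, wos2 and sti1 took up 0.360% ± 0.00799 of all counts in cpn1∆ and 0.239% ± 0.00606 in wild-type cells (SD, n = 3 each).

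To ask how evenly the genes of the system rose, counts were set against those of hsp90 within each library, a measure into which no scaling between libraries enters. For every 100 counts of hsp90, wos2 gave 28.9, 28.4 and 28.7 counts in cpn1∆ libraries, against 27.5, 27.5 and 26.4 in wild-type libraries. The groups did not overlap, but the difference was small, at 0.08 on the log2 scale. For sti1 the values were 15.78, 15.79 and 16.9 counts per 100 of hsp90 in cpn1∆ libraries, against 15.4, 15.78 and 15.7 in wild-type libraries, a log2 difference of 0.05 in which the nearest cpn1∆ and wild-type libraries all but touched. Relative to wos2, sti1 differed by -0.03 on the log2 scale, with overlapping groups. For cdc37 the ratio to hsp90 was 0.912 ± 0.0657 counts per 100 in cpn1∆ and 1.41 ± 0.0246 in wild-type cells (SD, n = 3 each), and the groups did not overlap. Each of the 3 ratios to hsp90 had an exact two-sided permutation p of 0.1, the smallest that 3 libraries against 3 allow (adjusted p = 0.15 over the 6 ratios computed), so that no such difference could pass a threshold of 0.05.

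**Figure D3:**
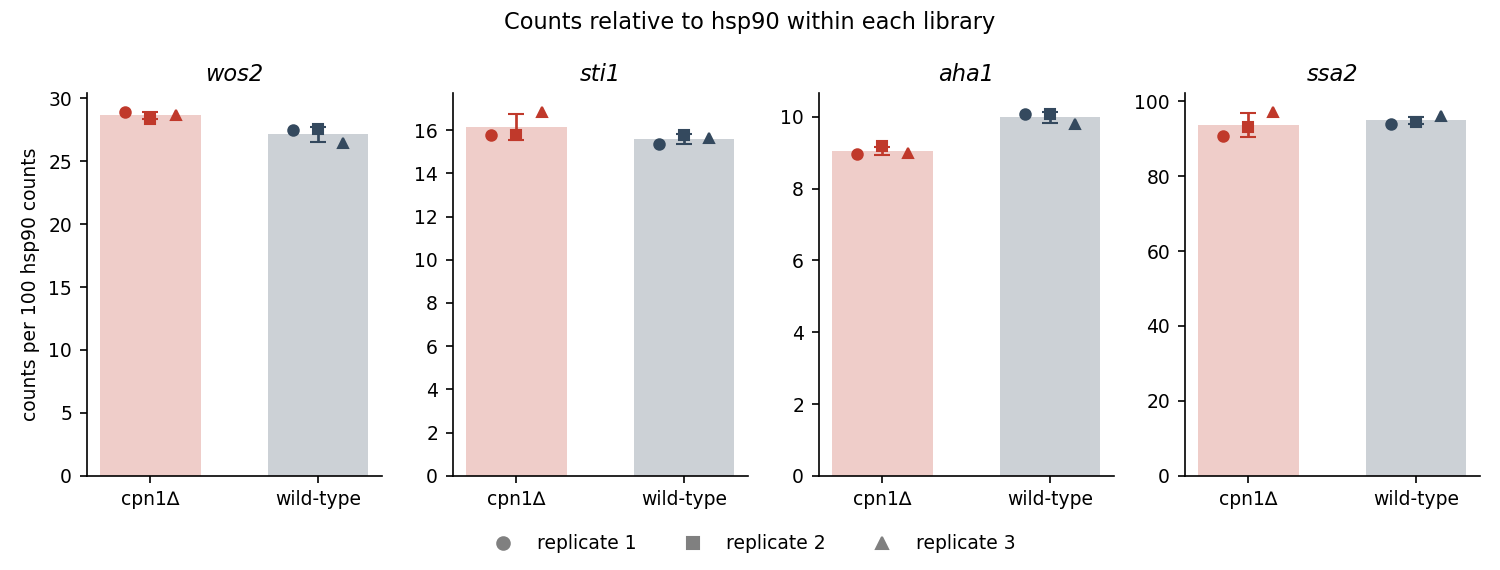
Counts of wos2, sti1, aha1 and ssa2 per 100 counts of hsp90 in the same library, for 3 cpn1∆ and 3 wild-type libraries (points), with mean (bar, from 0) and SD (error bar). The ratios lie close together in both genotypes, with wos2 and, by a very small margin, sti1 higher and aha1 lower in all cpn1∆ libraries than in any wild-type library.

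Across the 6 libraries, log2 CPM of hsp90 followed that of wos2 with a Pearson r of 0.998 and that of sti1 with 0.994, values that include the difference between the genotypes. After the mean of each genotype was taken away, r was still 0.85 between hsp90 and wos2, 0.76 between hsp90 and sti1 and 0.63 between wos2 and sti1, and -0.13 between hsp90 and cdc37. These are descriptions over 6 libraries that share the same depth and scaling for all genes. Among the 4713 other protein-coding genes tested, the one most like hsp90 over the 6 libraries was aha1 (r = 0.998), which encodes the co-chaperone that stimulates the Hsp90 ATPase, followed by wos2 and erf2, a palmitoyltransferase gene with a log2FC of 0.18. aha1 also came first for wos2 (r = 0.998), ahead of hsp90 and the quinone oxidoreductase gene zta1 (log2FC 0.27). For sti1 it was ssa2 (r = 0.998), a cytosolic Hsp70 gene, followed by ptp4 and ypt7, with log2FC of 0.08 and 0.10. For erf2, zta1, ptp4 and ypt7, a high r thus went with a log2FC well below that of the gene compared. This can occur because r does not measure the size of a change. The genes most like cdc37 were omt2, gna1 and scn3 (r = 0.987, 0.983 and 0.975), with log2FC of -0.06, -0.14 and -0.13.

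The annotated neighbours of hsp90, wos2 and sti1 that could be tested had smaller log2FC than these genes. Next to hsp90, the myosin light chain gene rlc1 had 81.0 ± 2.53 CPM in cpn1∆ and 80.3 ± 1.40 CPM in wild-type cells (SD, n = 3 each; log2FC 0.01). The 5S rRNA gene SPRRNA.18 on its other side had too few counts to be tested. Next to sti1, bye1, which encodes a regulator of transcription elongation, fell with a log2FC of -0.13 ± 0.03 (standard error; edgeR adjusted p = 0.0104), and the non-coding RNA SPNCRNA.1182 had a log2FC of 0.12 ± 0.14 (standard error). Next to wos2, the ESCRT-III gene vps24 was not called, at a log2FC of -0.11 ± 0.05 (standard error). The transporter gene abc1, which lies downstream of wos2 on the same strand, rose with a log2FC of 0.31 ± 0.03 (standard error; edgeR adjusted p = 9.73e-06). Next to cdc37, the transporter gene mdl1 had 0 counts in all libraries and the non-coding RNA SPNCRNA.1468 was not called (log2FC 0.04).

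Among other Hsp90 co-chaperones, the ATPase activator gene aha1 rose and most were not called. Of 14 genes on a list of further co-chaperones and client-specific assembly factors, 11 were matched to the table by symbol and 10 could be tested, of which 2 were higher and 0 lower (8.36% and 10.2% of all features). The median log2FC of the 10 was -0.04. aha1 gave 225, 220 and 225 CPM in cpn1∆ cells, against 173, 163 and 169 CPM in wild-type cells. The groups did not overlap, and the log2FC was 0.41 ± 0.03 (standard error; edgeR adjusted p = 4.63e-07). Set against hsp90 in the same library, aha1 gave fewer counts in cpn1∆ cells, at 9.05 ± 0.122 counts per 100 of hsp90, against 9.99 ± 0.154 in wild-type cells (SD, n = 3 each; exact two-sided permutation p = 0.1, the smallest possible). The second called gene was asa1, a factor in the assembly of large kinases of the PIKK family, with a log2FC of 0.11 ± 0.04 (standard error; edgeR adjusted p = 0.0456). This call was lost in 13 of 22 alternatives, among them DESeq2 and each fit with 1 library left out, with the adjusted p between 0.0312 and 0.146 over the 22. The other 8 genes were not called. They included cns1, a TPR-domain partner of Hsp90 and Hsp70 (log2FC -0.10), git7, the SGT1-like factor of glucose signalling (-0.07), and rvb1 and rvb2, ATPases that act with Hsp90 in the assembly of large complexes (-0.04 and -0.05). tel2, tti1 and tti2, which form the TTT complex for PIKK kinases, had log2FC of -0.03, 0.16 and -0.07, and the myosin chaperone gene rng3 of -0.13. Of these, tti1 and rng3 are overlapped over 72.5% and 91% of their exonic length, and wis2, the cyclophilin co-chaperone gene, had 0 counts in all libraries and is wholly overlapped by an annotated non-coding RNA, so that it was not measured.

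**Figure D4:**
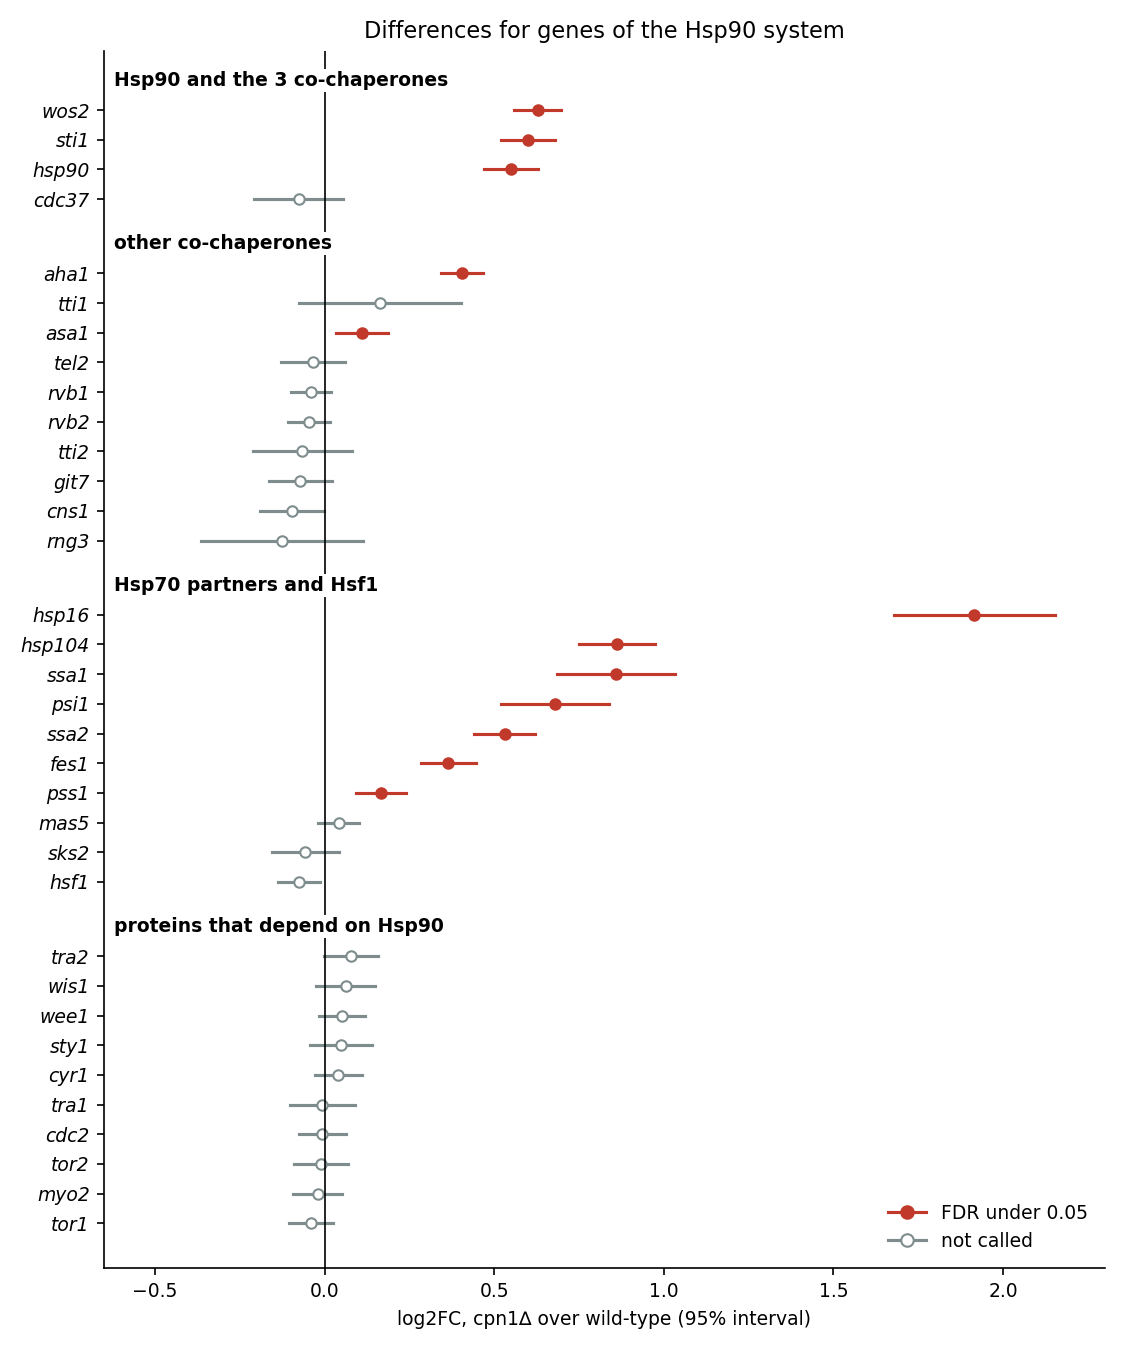
log2FC (cpn1∆ over wild-type, x) with its 95% interval for the 4 genes and the tested members of 3 lists, in rows by list, with filled red points for an FDR under 0.05. The red points are hsp90, wos2, sti1, aha1, asa1 and 7 of 10 genes of the Hsp70 list. The rows labelled as depending on Hsp90 hold genes tied to Hsp90, Cdc37 or the TTT complex, and lie between -0.04 and 0.08.

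The Hsp70 side of the pathway, from which Sti1 hands proteins to Hsp90, and the regulator of both were read from a list of 10 genes. Of these, 7 were higher and 0 lower, beside 8.36% and 10.2% of all features, with a median log2FC of 0.45. The cytosolic Hsp70 gene ssa2 was close to hsp90 in its change. It gave 2277, 2227 and 2431 CPM in cpn1∆ cells, against 1612, 1533 and 1656 CPM in wild-type cells, and for every 100 counts of hsp90 it had 93.7 ± 3.26 in cpn1∆ and 94.9 ± 1.02 in wild-type cells (SD, n = 3 each), with overlapping groups. Its log2FC was 0.53 ± 0.04 (standard error; edgeR adjusted p = 1.11e-06). Larger log2FC were found for ssa1, the other member of this Hsp70 pair, the disaggregase gene hsp104, psi1 and the small heat shock protein gene hsp16, at 0.86, 0.86, 0.68 and 1.92 in that order. The Hsp70 nucleotide exchange factor genes fes1 and pss1 rose with log2FC of 0.36 and 0.17. The Hsp40 gene mas5 (log2FC 0.04) and the ribosome-associated Hsp70 gene sks2 (-0.06) were not called. Nor was hsf1, the heat shock factor gene, which had 200 ± 4.57 CPM in cpn1∆ and 211 ± 4.52 CPM in wild-type cells (SD, n = 3 each), a log2FC of -0.08 ± 0.03 (standard error; edgeR adjusted p = 0.0839). Its 95% interval, not adjusted for the number of features, ran from -0.14 to -0.01. Groups did not overlap for hsf1 and sks2 in the lower direction and for mas5 in the higher, as for 35.5% of all features in either direction.

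Genes for proteins that are tied to Hsp90, Cdc37 or the TTT complex, in fission yeast or other eukaryotes, were taken from a list of 10. Of these, 0 were called in either direction by edgeR, with 0 also at an unadjusted p below 0.05, and 0 by DESeq2 and by limma voom. With 18.6% of all features called in either direction, a count of 0 of 10 is near the background and is no result about the list. The median log2FC was 0.02 and the values ran from -0.04 to 0.08. wee1, the kinase gene behind the names Swo1 and Wos2, gave 93.7, 91.5 and 92.3 CPM in cpn1∆ cells, against 90.3, 89.9 and 87.8 CPM in wild-type cells. These groups did not overlap, but the log2FC was 0.05, with a 95% interval from -0.02 to 0.12. The groups of tor1 did not overlap either, in the lower direction, with 116 to 118 CPM in cpn1∆ and 119 to 125 CPM in wild-type cells, where 35.5% of all features had groups without overlap. For the MAP kinase gene sty1, which Cdc37 supports, the log2FC was 0.05 (95% interval -0.04 to 0.14), with 82% of its exonic length overlapped by other features. tra2 and wis1 had the largest differences of the list, with log2FC of 0.08 and 0.06. The adenylate cyclase gene cyr1, the cyclin-dependent kinase gene cdc2, the myosin gene myo2 and the PIKK-family genes tra1, tor1 and tor2 all had a log2FC between -0.04 and 0.04.

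Over 22 alternatives, 6 of which left out 1 library, the log2FC of hsp90 ran from 0.52 to 0.57, that of wos2 from 0.61 to 0.66 and that of sti1 from 0.55 to 0.64, and each was called in all 22. The values of cdc37 ran from -0.11 to -0.05 over the 21 alternatives in which it was tested, and it was called in 0 of them.

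**Figure D5:**
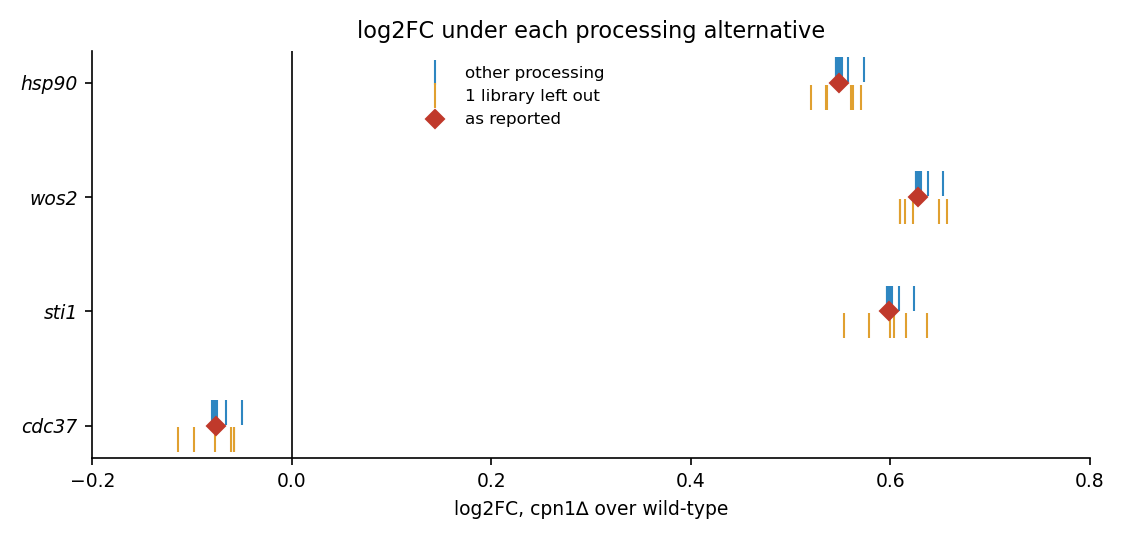
log2FC (cpn1∆ over wild-type, x) of the 4 genes as reported (diamond), under other processing (blue ticks) and with 1 library left out (orange ticks). The ticks of hsp90, wos2 and sti1 stay between 0.52 and 0.66 and those of cdc37 between -0.11 and -0.05.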

How the data were processed

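The authors deposited raw expected counts per annotated feature, unnormalized, 1 column per library. The submitters' processing notes name Cutadapt 4.8, STAR 2.7.10b, featureCounts and the genome build ASM294v2. Whether counting used strand, and how shared reads were treated, is not given in the sources used here. Fractional counts (760 features) were rounded, and the row named other (0.608% to 0.647% of each library) was left out. The planned design had assumed whole counts. The 3 cpn1∆ libraries were compared with the 3 wild-type libraries in edgeR 4.0.16 under R 4.3.3. Settings were TMM, filterByExpr with a minimum count of 10, glmQLFit with legacy set to FALSE, and genotype only. The fit was also tried on counts simulated with the same extra spread between replicates for all features. That setting need not match these libraries, and no result here rests on it. Alternatives used DESeq2 1.42.0 and limma 3.58.1, other scalings and filters, the replicate number as a block, and each library left out. Names, neighbours, exonic lengths and overlaps came from ASM294v3 (6846 of 7268 identifiers matched), another build than that of the counting, so that no coordinates or sequences are given and a planned search of promoter motifs was not run. CPM for correlations were on a log2 scale with a prior count of 2. Named genes are the 4 genes, their neighbours, the 3 genes most like each by Pearson r, and the called genes of each list or else its 2 largest changes. Further list genes were named after their values were seen. Of 34 list symbols 31 were used: pih1 and tah1 matched none, and ppt1 names another gene. The genes, lists and tests were chosen with earlier results of these data known. Replicates of a genotype differed by more than sampling noise (chi-square per feature 4.68 to 11).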

Additional observations from a re-analysis of the deposited data

How the results depend on the processing

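hsp90, wos2 and sti1 kept their direction and call, and cdc37 its lack of a call, at an FDR of 0.05 in every alternative tried that tested them. With the fold threshold of the study, the higher calls came to 0 of the 4 genes, 0 co-chaperones of the list and 1 Hsp70-related gene (hsp16), and all features to 18 higher and 18 lower. These are counts of the fit used here, and the study, with an earlier version of edgeR, reported fewer in each direction. At 1.5-fold the higher calls came to 2 of the 4 genes, 0 co-chaperones and 4 Hsp70-related genes, and all features to 49 higher and 43 lower. The co-chaperone list had 1 higher gene (aha1), not 2, with RLE scaling, the robust, likelihood ratio and exact tests of edgeR, DESeq2, limma voom and the replicate block, and 1 in each fit with 1 library left out; without wild-type replicate 3 it also had 1 lower gene (cns1, adjusted p = 0.0401 from edgeR), against 0 in the other such fits. With 1 library left out, 308 to 438 features were higher and 433 to 582 lower, the fewest higher without wild-type replicate 2. Same-numbered libraries were little alike (correlations of deviations -0.05, 0.05 and 0.09, and not every library was most like its own number). With 3 libraries per genotype, such values cannot settle whether the libraries were paired. The paper states that the replicates of both strains were handled in parallel, but it describes no pairing. The block gave 556 higher and 670 lower features against 486 and 595, and a log2FC of 0.55 for hsp90, 0.63 for wos2, 0.60 for sti1 and -0.08 for cdc37. cdc37 was not tested in the fit limited to genes with under 50% of their exonic length overlapped, added after the data were seen. With 3 libraries per genotype, the exact test of a ratio cannot pass 0.05.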
